A study of Mus musculus with 2 samples.

Results

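Pericytes are the mural cells that wrap the capillaries of the brain. Here they are the barcodes that met a rule on 6 mural genes (Rgs5, Abcc9, Atp13a5, Vtn, Kcnj8 and Pdgfrb), which together had to make up at least 0.3% of a barcode's unique molecular identifiers (UMIs, the tags that mark single captured RNA molecules). The rule also asked for at least 1000 UMIs and 500 genes, at most 15% mitochondrial UMIs, under 2% for Ttr, a choroid plexus transcript, and under 0.5% for 6 endothelial genes (Cldn5, Flt1, Abcb1a, Slco1a4, Cdh5 and Pecam1). It found 104 pericytes among 2843 barcodes that passed the limits on UMIs, genes and mitochondrial share. The study profiled single cells sorted from whole adult mouse brain by droplet 3′ RNA sequencing, in 1 library of each of 2 genotypes. IL34LacZ/+ carries the LacZ allele of the cytokine gene Il34 beside an intact one and is treated as wild type in the design, while IL34LacZ/LacZ carries LacZ on both alleles and is treated as the knockout, so every animal carried LacZ. The labels name endothelial cells and astrocytes as the sorted cell types, the sample titles name astrocytes alone, and neither names pericytes. Neither the number, exact age and sex of the mice, nor the markers of the sort, nor the position of LacZ in Il34 are stated. With 1 library per genotype there is no replicate of either, no difference below was tested, and every interval covers counting error only.

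Pericytes share a basement membrane with the capillary endothelium. Endothelial platelet-derived growth factor acting on the receptor Pdgfrb recruits and keeps them there, and in the brain they help to maintain the blood-brain barrier and capillary tone. They contract and relax through calcium channels, ATP-sensitive potassium channels and receptors for vasoactive peptides and nucleotides. Interleukin-34, the product of Il34, is a ligand of the macrophage receptor Csf1r, which it shares with Csf1, and it maintains microglia and some macrophages of the brain.

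Deposited were 3901 barcodes with 26679053 UMIs for the library labelled IL34LacZ/+, and 5400 barcodes with 36696941 UMIs for the one labelled IL34LacZ/LacZ. Barcodes within the limits on UMIs, genes and mitochondrial share numbered 1668 (median 8098.5 UMIs) and 1175 (median 10429 UMIs), respectively. Besides pericytes they fell, by marker shares, into 529 and 304 endothelial, 193 and 80 astrocyte, 249 and 234 oligodendrocyte, 360 and 274 choroid plexus and 22 and 27 fibroblast barcodes, with 273 and 194 in no class. Of the 9301 deposited barcode sequences 8 occurred in both libraries, none of them as a pericyte in both. UMIs of 4 Y-linked genes were found in 78.7% of kept barcodes (318 CPM) of the library labelled IL34LacZ/+. In the library labelled IL34LacZ/LacZ they were found in 59.5% (214 CPM). Whether the libraries differ in the sex of their mice was not tested.

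Pericytes were 42 of the 1668 kept barcodes in the library labelled IL34LacZ/+, a share of 2.52% (exact Clopper-Pearson 95% interval 1.82% to 3.39%). In the library labelled IL34LacZ/LacZ they were 62 of 1175, or 5.28% (4.07% to 6.71%). The share was 2.76 percentage points higher in the latter (Newcombe interval 1.27 to 4.36). The shares of endothelial and astrocyte barcodes, the cells named by the labels, also differ between the libraries, and a sort sets what a share is taken of. A difference in pericyte number in the brain and a difference in the sort or in recovery cannot be told apart.

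A pericyte held a median of 4881 UMIs in the library labelled IL34LacZ/+ (lowest 1532, highest 17638) and 5700 in the library labelled IL34LacZ/LacZ (1581 to 21935). Detected genes numbered 2219 (714 to 5178) and 2195.5 (971 to 5578), respectively. The mitochondrial share had a median of 4.19% (0.854% to 12.5%) and 5.25% (0.397% to 12.6%), so the libraries overlapped over nearly their whole range in all 3 measures. The summed depth of the pericytes was 260397 UMIs in the library labelled IL34LacZ/+ and 391555 in the library labelled IL34LacZ/LacZ, about 1% of each library (0.976% and 1.07%).

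The share of the 6 rule genes was well above its threshold in most pericytes, with a median of 2.05% (0.30% to 3.65%) in the library labelled IL34LacZ/+ and 1.66% (0.321% to 4.17%) in the library labelled IL34LacZ/LacZ. The members nearest to the threshold stood at 0.30%, 0.327% and 0.331% in the former and 0.321%, 0.370% and 0.382% in the latter. The nearest barcodes outside it stood at 0.245%, 0.224% and 0.189%, and at 0.274%, 0.273% and 0.215%. At least 4 of the 6 rule genes were detected in 35 of 42 and 51 of 62 pericytes, and all 6 in 25 and 30. Vtn was the most abundant rule gene in 24 and 39 pericytes and Atp13a5 in 16 and 20.

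**Figure D1:**
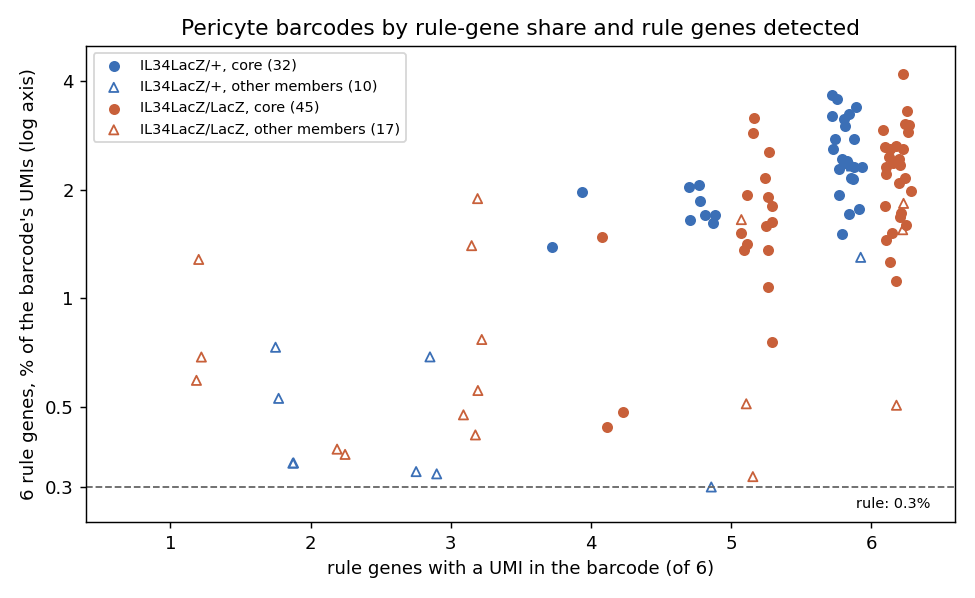
Each symbol is 1 pericyte, coloured by library label; the x axis gives how many of the 6 rule genes had a UMI (spread sideways for display) and the y axis, on a log axis, the share of its UMIs from these genes in percent, with filled circles for the core (32 and 45) and open triangles for the other members (10 and 17). Core members lie mostly above 1% with 5 or 6 rule genes, and the members near the dashed 0.3% line are mainly outside the core.

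The rule genes chose the members and do not check the label, and for some members other markers went against it. Fewer than 4 rule genes were detected in 7 and 11 pericytes, and these held 96.2% and 90.3% of all pericyte UMIs from the fibroblast list (21 genes such as Dcn, Col1a1 and Lum). Their rule genes summed to 4352 and 7159 CPM (UMIs of a gene per 1e+06 UMIs of the class, a scale of 3′ tags that needs no correction for gene length), and their fibroblast genes to 23292 and 23553 CPM. In the library labelled IL34LacZ/LacZ, 5 pericytes carried at least 0.3% of UMIs from 12 neuronal genes and held 690 of the 825 neuronal UMIs (83.6%), while the library labelled IL34LacZ/+ had none and 85 neuronal UMIs in all. Haemoglobin made up at least 5% of UMIs in 2 and 1 pericytes, up to 21.9% and 49.1%. A set of 12 astrocyte genes, such as Aqp4, Gja1 and Slc1a2, reached at least 0.3% in 1 and 3.

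A stricter set, called the core below and defined after the values were seen, kept pericytes with at least 4 rule genes detected, under 0.3% neuronal UMIs, under 0.3% from those 12 astrocyte genes and under 5% haemoglobin. It held 32 and 45 barcodes with 156260 and 249537 UMIs. In the core the rule genes summed to 23423 and 19985 CPM, the fibroblast list to 384 and 781 CPM and the neuronal list to 282 and 349 CPM. Each ratio below is given for all pericytes and, where it bears on the value, for the core.

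Markers of arterial smooth muscle, the other mural cell, were sparse in most pericytes. Acta2, its actin, had 4 UMIs in 2 pericytes and 10 UMIs in 1 pericyte. Tagln had 2 and 6 UMIs, and Cnn1 and Actg2 had 0 in both libraries (3 UMIs, the limit that a count of 0 allows, are 11.5 and 7.66 CPM). Myh11, the smooth muscle myosin, had 32 and 25 UMIs in 10 pericytes of each library. At least 3 smooth muscle genes were found in 3 and 2 pericytes. In the library labelled IL34LacZ/LacZ the highest counts of Acta2 (10 UMIs), Myh11 (11) and Tagln (5) came from the same pericyte. Its smooth muscle list summed to 6393 CPM, against a median of 126 CPM per pericyte, which goes against the label pericyte. It held 6570 UMIs, 0.441% of them from rule genes, of which 4 were detected. It is in the core, which sets no limit on smooth muscle genes. Of the macrophage genes, C1qa, C1qb and Tyrobp had 0 UMIs in all 104 pericytes, and Csf1r had 0 and 1.

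Il34, the targeted gene, lies on the minus strand of mouse chromosome 8 (chr8:110741829-110805924, GRCm38, GENCODE M21) and was read in pericytes of both libraries. Its level per pericyte in the library labelled IL34LacZ/+ was 0 CPM at the lowest, 333 at the median and 1295 at the highest. In the library labelled IL34LacZ/LacZ these values were 0, 338 and 2337 CPM, so the libraries overlapped and the median hardly differed. Summed over pericytes, Il34 had 101 UMIs or 388 CPM (exact Poisson 95% interval 316 to 471) in the former and 187 UMIs or 478 CPM (412 to 551) in the latter. The log2 ratio, here and below with the label IL34LacZ/LacZ in the numerator, was 0.30 with an exact conditional binomial interval of -0.06 to 0.66. In the core, the levels were 378 and 529 CPM and the log2 ratio 0.49 (0.03 to 0.95), and with at most 5% mitochondrial UMIs it was -0.11.

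The targeted gene in pericytes thus goes against what a loss of transcript would give. In pericytes its 3′ tags were not lower in the library whose label gives LacZ on both alleles. A 3′ tag outside the part that LacZ removes checks nothing, and where LacZ lies relative to these tags is not given in the sources used here. Both libraries are therefore named by their labels throughout, and any direction below holds for the labels as deposited.

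Among the classes compared, none of which was neuronal, Il34 tags were most abundant in pericytes. At least 1 UMI was found in 28 of 42 pericytes (66.7%, exact interval 50.5% to 80.4%) in the library labelled IL34LacZ/+. In the library labelled IL34LacZ/LacZ it was 50 of 62 (80.6%, 68.6% to 89.6%). Pericytes with a UMI of Il34 were deeper than those without, with medians of 5674 against 3638.5 UMIs and 5906.5 against 4106 UMIs. With each barcode thinned to 1000 UMIs, 9 pericytes (21.4%) and 21 (33.9%) kept one. Endothelial barcodes, of much the same depth (medians 4366 and 4850 UMIs), showed a UMI of Il34 in 0.567% and 0.329%, a background level for a class that should lack the gene.

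Fibroblasts came next in the library labelled IL34LacZ/+, and were close to astrocytes in the other. They had 26 UMIs (75.5 CPM) in 8 of 22 barcodes of the former and 5 UMIs (13.2 CPM) in 2 of 27 of the latter. Astrocytes had 6 UMIs (3.47 CPM) and 10 UMIs, the latter all in 1 barcode. Endothelial barcodes stood at 1.08 and 0.581 CPM and oligodendrocytes at 0.849 and 0.449 CPM. Choroid plexus barcodes stood at 0.829 CPM and 0 UMIs (3 UMIs there are 0.745 CPM). These 4 classes rest on 10 or fewer UMIs per library, so their order is not resolved. Barcodes in no class stood at 8.18 and 25.2 CPM, with up to 7 and 28 UMIs in a single barcode. The pericytes with fewer than 4 rule genes, which held most of the fibroblast UMIs, had Il34 at 515 and 570 CPM, above the fibroblast class.

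**Figure D2:**
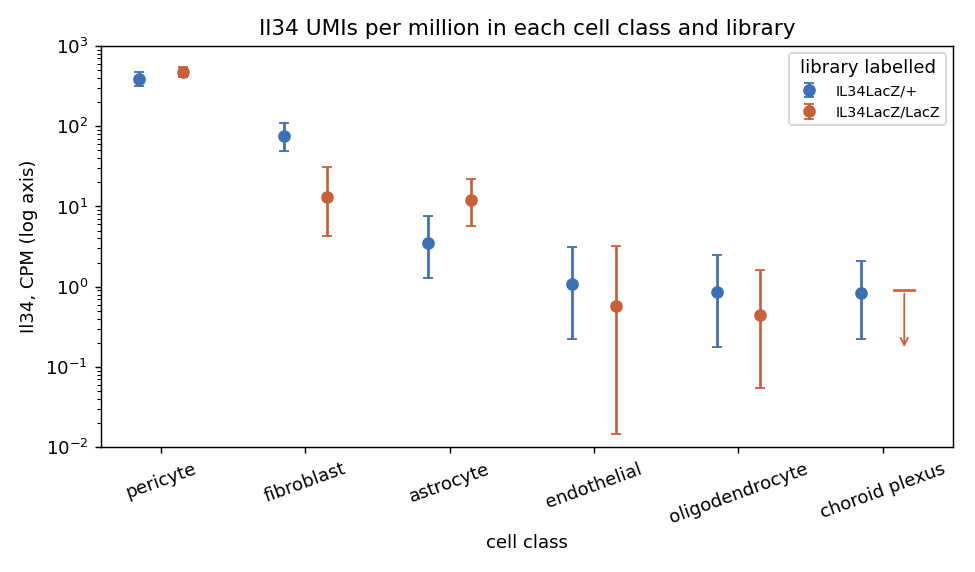
Il34 in CPM, on a log axis, by cell class and library label, with bars for exact Poisson 95% counting intervals and an arrow from the upper bound where no UMI was found. Pericytes stand at 388 and 478 CPM and fibroblasts at 75.5 and 13.2 CPM, and the intervals of endothelial, oligodendrocyte and choroid plexus barcodes overlap.

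The 6 genes that chose the members are given as a description. Vtn, which encodes vitronectin, an adhesive plasma and matrix protein, was the most abundant at 6690 CPM in the library labelled IL34LacZ/+ and 6191 CPM in the library labelled IL34LacZ/LacZ. Single pericytes ranged from 0 to 21153 and from 0 to 25512 CPM, with medians of 6452 and 6933. The log2 ratio was -0.11 (-0.20 to -0.02) over all pericytes, 0.02 without the 5 pericytes high in neuronal genes and -0.25 in the core. Vtn was not confined to pericytes, since fibroblasts held 134 and 76.8 CPM.

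Atp13a5, a P-type ATPase of the polyamine transporter group used as a marker of brain pericytes, stood at 4416 and 4551 CPM. Its log2 ratio was 0.04 (-0.06 to 0.15), and medians per pericyte were 6216 and 5232 CPM. The highest other class was astrocytes, at 71.1 and 86.1 CPM. The libraries gave nearly the same summed level.

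Rgs5, a regulator of G protein signalling that dampens the response to vasoactive receptors, differed most of the 6. It stood at 2542 CPM in the library labelled IL34LacZ/+ and 1775 in the library labelled IL34LacZ/LacZ, with medians per pericyte of 2529 and 1213 and highest values of 8459 and 6904. The log2 ratio was -0.52 (-0.67 to -0.36) in all pericytes and -0.53 in the core. Pericytes without a UMI of Rgs5 numbered 8 of 42 and 14 of 62, and single values of the libraries overlapped widely.

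Kcnj8 and Abcc9 encode the pore (Kir6.1) and the regulatory subunit (SUR2) of the ATP-sensitive potassium channel of mural cells. Abcc9 stood at 1398 and 1573 CPM, with a log2 ratio of 0.17 (-0.02 to 0.36), and 0.00 in the core. Kcnj8 stood at 330 and 283 CPM, with -0.22 (-0.64 to 0.20). Both intervals hold a ratio of 1. The genes are neighbours on the minus strand of mouse chromosome 6 (GRCm38, GENCODE M21), Kcnj8 at chr6:142564837-142571614 and Abcc9 at chr6:142587862-142702315. They lie 16247 bases apart with 0 annotated genes between them. A UMI of Abcc9 was found in 34 and 49 pericytes and one of Kcnj8 in 28 and 36.

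Pdgfrb, the receptor for endothelial platelet-derived growth factor, had a UMI in 41 of 42 and 58 of 62 pericytes at 1275 and 1080 CPM. Its log2 ratio was -0.24 (-0.45 to -0.03), and 0.17 after thinning to 1000 UMIs. Fibroblasts, which also make this receptor, held 145 and 111 CPM. None of the 6 rule genes differed by more than 1.5-fold between the libraries, and their median log2 ratio was -0.17 (-0.28 in the core).

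Beyond the rule genes, 28 markers of pericytes that the rule did not use were all measured, and 20 of them were more than 4-fold higher in pericytes than in the highest other class of both libraries, with the other class set to no less than 3 UMIs. The background is 130 of 4352 measured genes (2.99%), where measured means at least 30 UMIs over both libraries. All genes of a barcode share its depth and its selection, so these counts describe the members and test nothing. None of the other classes was smooth muscle or neuronal, so these contrasts do not set pericytes apart from other mural cells.

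Several of these genes handle calcium and membrane potential. Ano1, the calcium-activated chloride channel of contractile cells, stood at 952 and 817 CPM against 11.6 and 10.6 in fibroblasts, the highest other class. Casq2, a calcium buffer of the sarcoplasmic reticulum, stood at 338 and 271 CPM against 1.43 and 1.12. Atp2a3, a calcium pump of the endoplasmic reticulum, stood at 300 and 345 CPM against 7.53 and 7.55 in endothelial barcodes. Each of these 3 genes was thus more than 10 times higher in pericytes than in any other named class of either library, none of which was smooth muscle. Trpc4, a cation channel, stood at 280 and 358 CPM against 14.5 and 1.74.

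Receptors and second messenger enzymes formed another group. Cysltr2, a receptor for cysteinyl leukotrienes, stood at 323 and 296 CPM against 0.359 and 0.674. S1pr3, a sphingosine-1-phosphate receptor, stood at 396 and 312 CPM against 8.72 and 13.1. Ednra, the endothelin receptor, stood at 472 and 398 CPM against 34.9 and 60.9. The guanylate cyclase subunits that sense nitric oxide, Gucy1a2 and Gucy1b1, stood at 1064 and 1366 CPM and at 515 and 585 CPM. The phosphodiesterases Pde8b (4678 and 4199 CPM) and Pde3a (734 and 498 CPM), which degrade cyclic nucleotides, were also read. Of 45 vasoactive genes listed, 9 had no UMI in any pericyte, among them Agtr1a, the angiotensin receptor, and Htr2a, a serotonin receptor.

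Transport and signalling genes included Slc38a11, a putative amino acid transporter, at 1148 and 1098 CPM against 3.59 and 2.65. Slc6a20a, a proline transporter, stood at 1456 and 1818 CPM against 206 and 76.8. Inpp4b, a phosphoinositide phosphatase, stood at 1632 and 1749 CPM against 63.6 and 62.2 in astrocytes. Art3 (568 and 495 CPM), Lin7a (591 and 626 CPM), Adap2 (795 and 909 CPM), Rgs4 (349 and 381 CPM) and Plxdc1 (376 and 501 CPM) were each below 18 CPM in the highest other class. Higd1b, a hypoxia-inducible domain protein, stood at 261 and 158 CPM, and Pla1a, a phospholipase, at 165 and 174 CPM.

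Not every abundant pericyte gene stood far above the other classes. Ebf1, a transcription factor, stood at 3380 and 4028 CPM in pericytes and 3810 and 3869 CPM in endothelial barcodes. By contrast, Dlc1, a GTPase-activating protein, was among the most abundant nuclear genes at 8510 and 9026 CPM, against 467 and 475 CPM in endothelial barcodes. Notch3, the mural Notch receptor, stood at 995 and 1022 CPM against 57.2 and 44.2 in astrocytes. Cspg4, the proteoglycan NG2, stood at 626 and 572 CPM against 20.3 and 31.8 in fibroblasts.

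**Figure D3:**
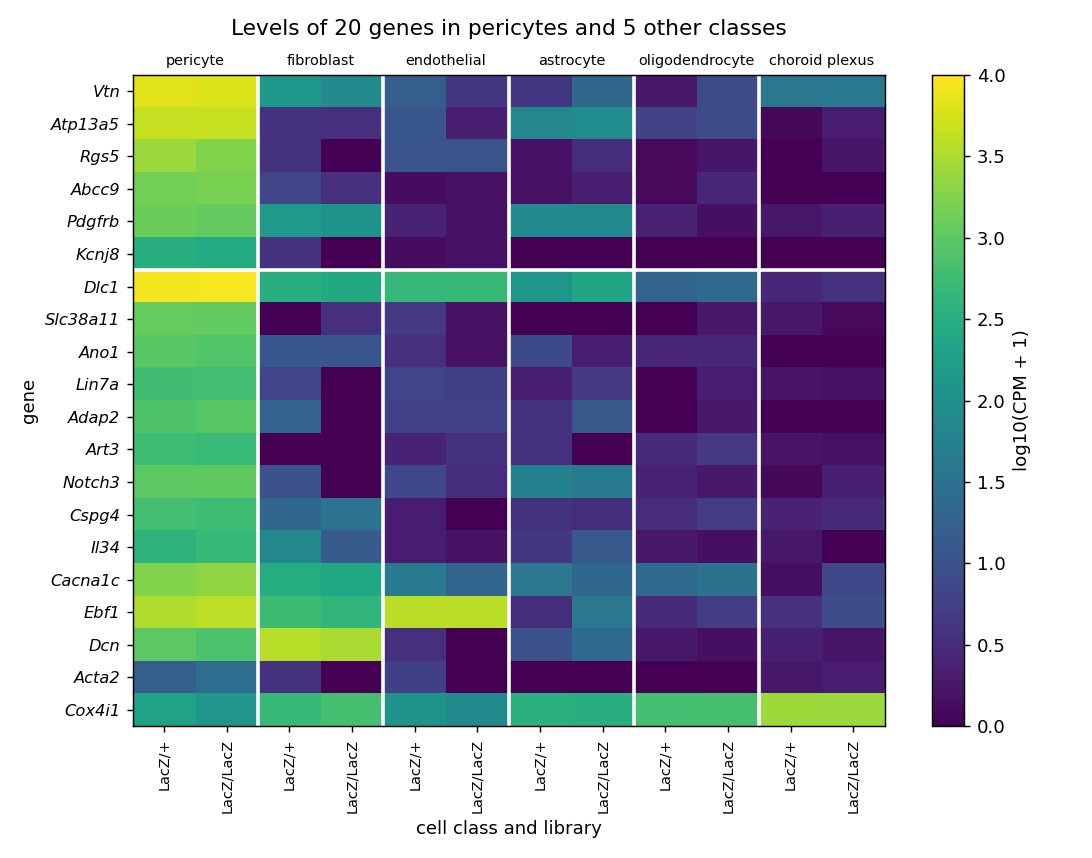
Levels of 20 genes (rows) in 6 cell classes of both libraries (columns), coloured by log10(CPM + 1), with the 6 rule genes above the white line. The pericyte columns of both libraries look alike for genes such as Atp13a5 (4416 and 4551 CPM) and Ano1 (952 and 817 CPM), while Ebf1 is as high in endothelial barcodes.

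The libraries were then compared gene by gene within pericytes. Over 4352 measured genes the median log2 ratio was -0.07, and 69.6% lay within 1.5-fold. A gene is counted below as higher or lower where it was past 1.5-fold and its counting interval left out a ratio of 1. By this count 306 genes (7.03%) were higher and 408 (9.38%) lower in the library labelled IL34LacZ/LacZ. In the core 2695 genes were measured, of which 169 (6.27%) were higher and 180 (6.68%) lower, with a median of -0.01. Past 2-fold, whatever the interval, 232 genes were higher (5.33%) and 220 lower (5.06%), a share of 51.3% higher, and with the 5 pericytes high in neuronal genes left out the share was 38.8%. These shares are the background for each list below.

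Of the 28 other pericyte markers 1 was higher and 5 were lower, with a median of -0.12 (core 0 and 5, median -0.13). Enpep, the aminopeptidase that degrades angiotensin II, was higher at 365 against 234 CPM, a log2 ratio of 0.64 (0.20 to 1.10), and 0.57 in the core. Ndufa4l2, a hypoxia-induced mitochondrial protein, was lower at 174 against 323 CPM, -0.89 (-1.38 to -0.41). P2ry14, the receptor for UDP-glucose, was lower at 319 against 511 CPM, -0.68 (-1.04 to -0.31). Higd1b was lower by -0.72 (-1.24 to -0.20), with 45.6% of its UMIs in the library labelled IL34LacZ/+ from 1 pericyte, and stood at -0.098 without the top barcode of each library. Pth1r, the parathyroid hormone receptor, had -0.59 (-1.09 to -0.09), and Tbx18, a mural transcription factor, -0.62, but -0.09 in the core. Most of the marker list did not pass: Notch3 had 0.04 (-0.19 to 0.27), Cspg4 -0.13, Slc6a20a 0.32 (0.14 to 0.50) and Ebf1 0.25 (0.13 to 0.37).

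Of 20 contractile genes 17 were measured, 1 higher and 5 lower, with a median of -0.39 (core 0 and 6, median -0.21). Genes for actin, myosin light chains and tropomyosin were among the lower ones. Myl9, a myosin regulatory light chain, stood at 303 and 166 CPM, a log2 ratio of -0.87 (core -0.88). Myl12a, another light chain, stood at 127 and 46.0 CPM, -1.46 (core -1.14). Actb stood at 1214 and 669 CPM (-0.86) and Tpm1, a tropomyosin, at 180 and 110 CPM (-0.72), and each ratio in the core was within 0.10 of these. Without each library's top barcode Myl9 stood at -0.43 and Actb at -0.50, short of 1.5-fold. Ppp1r12b, a subunit of myosin phosphatase, which relaxes the cell, was higher at 227 against 150 CPM (0.60, core 0.35). Cald1, caldesmon, did not pass at 2001 and 1770 CPM (-0.18).

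Of 29 ion channel genes 17 were measured, 2 higher and 1 lower, with a median of 0.17 (core 14 measured, 1 and 1, median 0.10). Trpc6, a diacylglycerol-gated cation channel, was lower at 66.4 against 180 CPM, a log2 ratio of -1.44 (-2.19 to -0.72), and -1.77 in the core. Its relative Trpc4 (0.35) did not pass, nor did Ano1 (-0.22) or Cacna1c, the L-type calcium channel (0.31, 0.15 to 0.48). The higher ones were Kcnq5 (30.7 and 76.6 CPM, 1.32) and Ryr2 (15.4 and 84.3 CPM, 2.46), channels that neurons also make. In the core Kcnq5 stood at 0.23 and Ryr2 was not measured. Pkd2, polycystin-2, passed in the core alone, at 0.82 (0.23 to 1.44) against 0.52 over all pericytes.

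Of 45 vasoactive receptor and cyclic nucleotide genes 23 were measured, 0 higher and 4 lower, with a median of -0.22 (core 21 measured, 1 and 2, median -0.25). The lower ones were P2ry14 and Pth1r, above, and both parts of the adrenomedullin receptor. Of these, Calcrl stood at 292 and 158 CPM (-0.88) and Ramp2 at 119 and 51.1 CPM (-1.22), but they stood at -0.49 and -0.35 in the core. Adora2a, an adenosine receptor, passed in the core at 1.20 (0.10 to 2.45) and stood at 0.61 (-0.25 to 1.52) over all pericytes. Gucy1a2 (0.36, 0.15 to 0.58), Gucy1b1 (0.18), Ednra (-0.25) and Pde3a (-0.56) did not pass.

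Of the genes for platelet-derived growth factor, TGF-beta, Notch and angiopoietin signals 30 of 51 were measured, 0 higher and 3 lower, with a median of -0.14 (core 18 measured, 1 and 0, median -0.12). The lower ones were Pdgfra (369 and 209 CPM, -0.82), Bmp6 (595 and 263 CPM, -1.18) and Mdk, midkine (104 and 28.1 CPM, -1.88). Pdgfra and Bmp6 came from 7 pericytes in the library labelled IL34LacZ/+, and in its core both had 0 UMIs. Cdh2, N-cadherin, through which pericytes adhere to endothelium, stood at 553 and 794 CPM, 0.52 (0.23 to 0.82), short of the 1.5-fold limit. Pdgfb, the endothelial ligand, had 0 and 1 UMIs.

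Of 46 basement membrane and matrix genes 29 were measured, 0 higher and 5 lower, with a median of -0.23 (core 25 measured, 0 and 2, median -0.03). Mgp, the matrix Gla protein, an inhibitor of calcification, was lower at 235 against 826 CPM. Its log2 ratio was -1.81 (-2.18 to -1.45), and -1.76 in the core. However, 1 pericyte gave 46% of its UMIs in the library labelled IL34LacZ/+, without each library's top barcode the ratio was -1.27, and fibroblasts held 13401 and 14285 CPM. Col5a2, a fibrillar collagen, stood at 211 and 107 CPM (-0.98, core -0.83). Sparc (695 and 419 CPM, -0.73), Timp3 (430 and 268 CPM, -0.68) and Col18a1 (131 and 30.7 CPM, -2.09) were the others, and Sparc and Timp3 stood at -0.37 and -0.35 in the core. Timp3 stood at 1.10 (-0.28 to 2.71) after thinning and at 0.60 (-0.43 to 1.71) in pericytes with at least 1% rule genes. The laminin chain Lama2 (0.04) and the basement membrane collagen Col4a1 (680 and 462 CPM, -0.56) did not pass.

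Of 31 transcription factors 23 were measured, 0 higher and 5 lower, with a median of -0.15 (core 20 measured, 1 and 3, median -0.09). Foxd1, a factor of forebrain mural precursors, stood at 269 and 151 CPM (-0.84, core -0.79). Nr2f1 stood at 184 and 115 CPM (-0.68, core -1.12) and Tshz2 at 207 and 128 CPM (-0.70, core -1.63). Foxc1 (-0.62) and Tbx18 passed over all pericytes but stood at 0.45 and -0.09 in the core. Zic4 passed as higher in the core alone, at 1.03 (0.34 to 1.77). Of 31 solute carriers and transporters 18 were measured, 0 higher and 1 lower, with a median of 0.03. The lower one was Abca1, a cholesterol exporter, at -0.86 over all pericytes and 0.91 in the core.

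Of 33 genes for cytokines and macrophage ligands 10 were measured, 0 higher and 3 lower, with a median of -0.38. In the core 4 were measured, 1 higher and 0 lower, and the median was 0.50, so its direction turned. Il33, an alarmin, stood at 284 and 46.0 CPM (-2.63), with 68.9% of its UMIs in the library labelled IL34LacZ/+ from 1 pericyte. In the core it had only 4 and 0 UMIs. Il1r1 (-0.95, core 0.04) and Tnfrsf1a (96.0 and 33.2 CPM, -1.53, core -0.96 with an interval of -2.41 to 0.44) were the others. Csf1, the other ligand of Csf1r, had 12 and 8 UMIs, far fewer than the 101 and 187 of Il34. Inflammatory genes such as Ccl2, Cxcl1, Cxcl10 and Il6 had no UMI. Of 26 interferon and major histocompatibility genes 6 were measured, and Ifitm1 was lower at 71.5 against 127 CPM (-0.83, core -1.19, and -0.52 without the top barcodes). Of 27 immediate early genes 2 were measured.

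**Figure D4:**
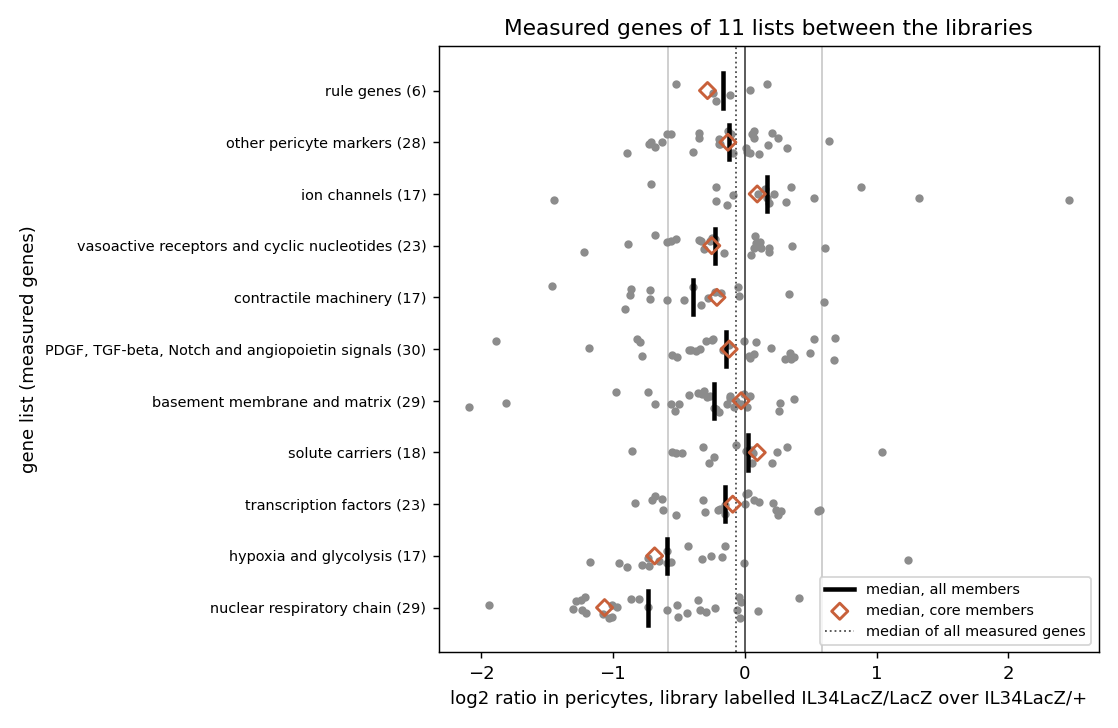
Log2 ratio between the libraries (IL34LacZ/LacZ label in the numerator) in pericytes for each measured gene (points) of 11 lists, with black bars for list medians, open diamonds for core medians, a dotted line for the median of all measured genes and grey lines at 1.5-fold. Medians lie between -0.39 and 0.17 in 9 lists, against -0.07 for all measured genes, and at -0.59 and -0.73 for hypoxia and glycolysis and the respiratory chain.

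Among the lists of cell functions with more than 2 measured genes, the median furthest below that of all genes was that of the nuclear-encoded respiratory chain. Of 41 such genes 29 were measured in pericytes, 0 higher and 12 lower, with a median of -0.73 (core 13 measured, 0 and 6, median -1.06). They summed to 3514 CPM in the library labelled IL34LacZ/+ and 2311 CPM in the library labelled IL34LacZ/LacZ. Cox8a, a subunit of cytochrome c oxidase, stood at 269 and 148 CPM, a log2 ratio of -0.86 (-1.39 to -0.34), and -1.16 in the core. Cox4i1 stood at 203 and 123 CPM (-0.73), Cox7c at 150 and 63.9 CPM (-1.23) and Atp5a1, an ATP synthase subunit, at 157 and 63.9 CPM (-1.30). Not all members were lower, since Sdha (0.41), Atp5b (-0.06) and Atp5c1 (0.10) were not.

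Some other values were also lower in the library labelled IL34LacZ/LacZ, and others were not. Medians per pericyte of the Ttr share were 0.142% and 0.0889%, and those of ribosomal protein genes 0.629% and 0.432%. The 4 measured genes of the oligodendrocyte list had a median of -0.84, and the whole list summed to 653 and 434 CPM. The astrocyte list summed to 9317 and 7182 CPM (core 8051 and 6801). The fibroblast list summed to 6686 and 5488 CPM over all pericytes but to 384 and 781 CPM in the core. The choroid plexus list hardly differed, at 442 and 427 CPM. The erythrocyte list summed to 12876 and 11539 CPM, and to 2579 and 3146 CPM in the core. The mitochondrially encoded share was higher, at 4.19% and 5.25%. In endothelial barcodes 41 genes of the respiratory chain list were measured and 18 were lower, with a median of -0.53, where 8.23% of all measured genes were lower. In astrocytes 3 were lower, with a median of -0.03, where the share of all measured genes was 3.61%. Medians were 0.03 in choroid plexus barcodes, where the list summed to 38982 and 40008 CPM, -0.07 in oligodendrocytes and 0.16 in fibroblasts. The part of free RNA, RNA quality and the cell types in this difference was not tested. Of 35 genes of hypoxia and glycolysis 17 were measured, 1 higher and 5 lower, with a median of -0.59. The lower ones were Ndufa4l2, Higd1b and Cox4i1, already given, and the glycolytic Gapdh and Ldha.

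The 10 highest ratios by the rule for named genes were mostly neuronal. Among them were Nalf1 (3.84 and 243 CPM, a log2 ratio of 5.98), Csmd1 (5.34), Nrxn3 (5.11), Nrg3 (4.48), Kcnip4 (38.4 and 580 CPM, 3.92), Dlg2 (3.80), Car10 (3.57), Fgf14 (3.51) and Anks1b (3.45). Nrxn3 encodes a presynaptic adhesion protein and Kcnip4 a partner of neuronal potassium channels. In the library labelled IL34LacZ/LacZ 1 pericyte gave 79.7% of the UMIs of Kcnip4. In the core Kcnip4 stood at -0.09, Dlg2 at -0.09, Car10 at -0.68 and Fgf14 at -0.68, while Anks1b (1.72, 0.15 to 3.72), Nrxn3 (2.13, from 1 and 7 UMIs) and Nrg3 (0.32, from 2 and 4 UMIs) stayed above 0. Csmd1 stood at -0.38 without the 5 pericytes high in neuronal genes.

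The 10 lowest ratios were Crip1 (230 and 35.8 CPM, -2.69), Il33 (-2.63), Ndnf (196 and 38.3 CPM, -2.35), Stxbp4 (211 and 46.0 CPM, -2.20), Col12a1 (588 and 143 CPM, -2.04), Rasgef1b (-1.66), Dynll1 (196 and 71.5 CPM, -1.45), Trpc6 (-1.44), Cst3 (1571 and 585 CPM, -1.43) and Rnf220 (-1.38). Crip1, a LIM domain protein of smooth muscle and other cells, remained lower in the core at -2.90 (-3.93 to -1.98), although 1 pericyte gave 56.7% of its UMIs in the library labelled IL34LacZ/+, and without the top barcodes it stood at -1.83. Stxbp4 (-1.18), Dynll1 (-1.19) and Trpc6 (-1.77) were lower in the core too. Cst3, cystatin C, had 52.6% of its UMIs in that library from 1 pericyte and stood at -0.46 without the top barcodes and -0.14 in the core. Col12a1, a collagen, had 0 UMIs in the core of the library labelled IL34LacZ/+ and 15 UMIs (60.1 CPM) in that of the library labelled IL34LacZ/LacZ, so its direction turned. Rnf220 turned to 1.83 (0.04 to 4.24) in the core. Rasgef1b stood at 1.75 (-0.45 to 4.96) with at least 4 rule genes and Ndnf at 0.96 (-2.68 to 6.67) with at least 1% rule genes. Both of these intervals hold 0, and each gene had only 1 and 0 UMIs in the core, so their direction there is not resolved.

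Genes whose difference was spread over pericytes were picked after their values were seen, as those with no pericyte giving 25% or more of the UMIs in either library and a core interval that also left out a ratio of 1. There were 78 higher and 67 lower among the 4352 measured genes. For scale, 306 (7.03%) and 408 (9.38%) of these were past 1.5-fold with an interval leaving out 1 over all pericytes. In the core these were 169 (6.27%) and 180 (6.68%) of 2695. Among the higher ones, P3h2, which hydroxylates prolines of basement membrane collagen, stood at 65.3 and 209 CPM, a log2 ratio of 1.68 (0.92 to 2.53), and 1.75 in the core. Mef2d, a transcription factor of muscle and neurons, stood at 49.9 and 135 CPM (1.44), Bach1, a repressor of haem oxygenase, at 49.9 and 123 CPM (1.30) and Frk, a tyrosine kinase, at 96.0 and 230 CPM (1.26). Among the lower ones, Rarres2, which encodes chemerin, stood at 230 and 120 CPM (-0.94, core -1.45), Ankrd12 at 280 and 120 CPM (-1.22) and Rc3h2 at 227 and 105 CPM (-1.11). Being chosen by their ratios, these genes support nothing further.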

How the data were processed

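The deposited values are raw UMI counts per gene and barcode in sparse matrices, which the authors produced. Per the file headers, the software was Cell Ranger 7.1.0, and the submitters' processing notes name the builds mm10 and GRCm38.p6. The annotation release, any removal of free RNA or doublets, and the alignment settings are not given in the sources used here. Counts were read with Python 3.11.15, NumPy 2.4.6, SciPy 1.17.1 and pandas 2.3.3. No column of another sample was present and none was left out.

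The members and gene lists were chosen with earlier results of these data known, so no list is independent evidence. CPM are the UMIs of a gene summed over the barcodes of a class, relative to all UMIs of that class in the library. Ratios carry exact conditional binomial 95% intervals, levels exact Poisson and shares Clopper-Pearson intervals. PCR duplicates are collapsed by UMI, and intervals cover counting error only. The interval code was tested on simulated data. Classes were cut by summed marker shares: endothelial genes at least 0.5%, fibroblast 0.5%, astrocyte 1%, oligodendrocyte 1% and choroid plexus 5% of UMIs. Barcodes that met the pericyte rule were pericytes whatever their other markers, and the others had to meet exactly 1 of these limits, to stay under 0.3% mural genes and, outside choroid plexus, under 2% Ttr. Positions came from GENCODE M21, to which 25461 of 25906 gene IDs matched. Some markers, such as Malat1 and Xist, are not among the features and were not analysed here.

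Scrublet, in Scanpy 1.11.5, marked 10 (0.600%) and 7 (0.596%) of the kept barcodes as doublets, 1 and 0 of them pericytes. None was removed.

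Named genes are members of the lists, the 10 highest and 10 lowest ratios, the 20 genes outside the rule highest over other classes, the 10 most abundant nuclear genes and the 10 genes most like Il34 by class pattern. Ratio-named genes needed at least 60 UMIs, an interval leaving out 0 on the log2 scale, and the same direction after thinning to 1000 UMIs and without the top barcode of each library. These left out genes over 10 times higher in another class, unnamed models, and genes for haemoglobin, ribosomal proteins, the mitochondrial genome or the sex chromosomes. Some genes that this rule names are not reported here. Alternatives varied the limits on barcodes and genes, scaling and thinning.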

Additional observations from a re-analysis of the deposited data

Results flagged for a closer look

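Barcodes outside the limits on depth, genes or mitochondrial share also held mural RNA, data that no comparison above uses. Of the 2233 barcodes left out of the library labelled IL34LacZ/+, 5 met the rest of the pericyte rule (0.224%, where a count of 0 would allow 0.134%). In the library labelled IL34LacZ/LacZ it was 6 of 4225 (0.142%, where a count of 0 would allow 0.0710%). Most were over the mitochondrial limit (4 and 6), with median mitochondrial shares of 33.2% and 20.7% and median depths of 573 and 3306 UMIs. At least 4 rule genes were detected in 1 and 3 of them. Il34 had 0 UMIs in the former and 8 UMIs (434 CPM) in the latter. With 1 library per genotype, no spread between libraries of a genotype can be looked at.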

How the results depend on the processing

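No paired analysis was possible because each genotype has 1 library. With at most 5% mitochondrial UMIs the pericyte shares were 3.41% and 6.76% and the log2 ratio of Il34 was -0.11, its only value below 0 over 19 alternatives (highest 0.49, interval above 0 in 4). The share difference stayed above 0 in all 14 alternatives, 1.91 to 3.34 percentage points, each with its interval above 0. The number of genes past 2-fold depended on the settings. It was 116 higher and 139 lower with rule genes at 1% or more, 36 and 22 among genes with at least 100 UMIs, 817 and 854 with at least 10 UMIs, and 18 and 16 after thinning, where 538 genes were measured. Without the top barcode of each gene 116 were lower. Higher genes were then 62.1% of those past 2-fold, also 62.1% with at least 100 UMIs, and 60.1% (270 and 179) with the median ratio set to 0. Limits added after seeing the data gave 123 higher with neuronal genes under 0.3%, 147 with the astrocyte limit, and 125 higher, 111 lower and a share of 3.83% in the library labelled IL34LacZ/LacZ in the core. Log2 ratios that changed sign were Csmd1 (-0.14) with rule genes at 0.2%, and Ndnf (0.96), Rnf220 (1.37) and Timp3 (0.60) at 1%. With at least 4 rule genes, Rasgef1b (1.75) and Rnf220 (0.94) did so. With neuronal genes under 0.3% they were Csmd1 (-0.38), Kcnip4 (-0.53), Dlg2 (-0.38), Car10 (-1.70), Fgf14 (-1.38) and Vtn (0.022). In the core, Kcnip4 (-0.090), Dlg2 (-0.090), Car10 (-0.68), Fgf14 (-0.68) and Rnf220 (1.83) did so, and after thinning Pdgfrb (0.17) and Timp3 (1.10). Of these changed ratios, only that of Rnf220 in the core had a counting interval that left out 0. The listing is not complete, since Abca1, Foxc1 and Il1r1 also changed sign in the core, as given above. List medians changed sign there too, for cytokines (-0.38 over all pericytes, 0.50 in the core), immediate early genes (-1.01 and 0.36) and fibroblast genes (-0.54 and 1.63). Col12a1 and Pdgfra had 0 UMIs in the library labelled IL34LacZ/+, and some in the other, with rule genes at 1%, with at least 4 rule genes and in the core. They thus had no finite ratio there and are not among the counts given next. The lower bounds on the log2 ratio were 1.32, 1.13 and 1.17 for Col12a1, which turned. For Pdgfra they were 1.32, -1.99 and -1.95, so it turned with rule genes at 1% and its direction is not resolved in the other 2 settings. The cause was not tested. Of 1097 values of named genes and lists under the alternatives, 970 stayed within the counting interval or quartiles of the reported one, 108 moved and 19 changed sign. After thinning no gene of the respiratory chain, immediate early and interferon lists was left to measure. Depth limits genes near 30 UMIs most, since pericyte sums are 260397 and 391555 UMIs.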

Other observations

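The genes whose level over the classes was most like that of Il34 were Galnt17, Col27a1, Lamc3 and the gene model Gm47171, each with Pearson's r of 0.98, followed by Ifitm1, C1qtnf7, Myl9, Gfra2, Pla2r1 and Tnxb with 0.97. The correlation was taken over 12 points, 6 classes in each of 2 libraries, on log2(CPM + 10), and is a description, since the points share libraries and any gene read mainly in pericytes follows this pattern. Galnt17, a glycosyltransferase, stood at 868 CPM in pericytes of the library labelled IL34LacZ/+ and 1057 CPM in the library labelled IL34LacZ/LacZ. Lamc3, a laminin chain, belongs to the 28 other pericyte markers.

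The most abundant nuclear transcripts of pericytes outside the rule included genes that say little about cell type. The ribosomal RNA repeat feature Rn18s-rs5 stood at 26886 and 28696 CPM and Hbb-bs, a haemoglobin chain of red blood cells, at 5818 and 6311 CPM. Zbtb20, a transcriptional repressor, stood at 5196 and 5026 CPM, Ptn, the growth factor pleiotrophin, at 4693 and 4329 CPM, Prkg1, the kinase activated by cyclic GMP, at 4508 and 4891 CPM, and Rora, a nuclear receptor, at 4328 and 5174 CPM. Haemoglobin had a median share of 0.268% and 0.256% per pericyte, and the 2 and 1 pericytes with at least 5% held 84.0% and 77.2% of the red blood cell UMIs, so those levels rest on few barcodes.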
